A study of Homo sapiens with 4 samples.

Results

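Loops of 200 kb to under 500 kb made up 1871 of the 22680 high-confidence loops (8.25%) that were deposited for cohesin HiChIP of A673 cells. They were chosen by the deposited loop width alone, which lies within 0.5 bp of the distance between the midpoints of a loop's anchors, and the chosen widths ran from 200.1 to 499.5 kb. In HiChIP, neighbouring chromatin ends are ligated inside the nucleus and enriched for a chosen protein, here SMC1, so that each paired-end tag (PET) records a contact between a pair of anchors. A673 is an established Ewing sarcoma cell line that carries the EWS-FLI1 fusion. The design compares these cells with and without STAG2.

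The STAG2-null group had 2 libraries (STAG2-null 1 and STAG2-null 2) from single-cell clones in which CRISPR/Cas9 had modified the gene, and the wild-type group had 2 libraries (wild-type 1 and wild-type 2). Every library came from A673 cells, so both groups carry the fusion, and the labels give neither an added treatment nor a time. They also do not say whether the 2 STAG2-null libraries are 2 different clones, or whether libraries of a group are separate cultures. The p-values therefore rest on the spread between libraries that may be technical replicates, and features of a clone cannot be told apart from the loss of STAG2. SMC1 contacts do not measure the STAG2 transcript or protein, so the knockout was not checked here.

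Cohesin is a ring-shaped complex that extrudes chromatin into loops until it meets barriers such as the DNA-binding protein CTCF. Each ring carries either STAG1 or STAG2 beside the core subunits SMC1, SMC3 and RAD21. STAG1-cohesin is known to stay longer on chromatin and to hold long CTCF-anchored loops, whereas STAG2-cohesin is known for shorter contacts between promoters and enhancers. EWS-FLI1 binds GGAA repeats and single ETS sites and is the driver of Ewing sarcoma.

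The table held 147518 and 159388 PETs in the STAG2-null libraries and 142379 and 158922 PETs in the wild-type libraries. Loops of 200 to 500 kb took 9157 and 10007 of these in STAG2-null cells, against 8420 and 9914 in wild-type cells. A loop of this width held a median of 16 PETs over the 4 libraries, with a range of 8 to 196, and 596 of the 1871 reached 20 PETs. Across these loops, the log2 PETs correlated at 0.306 within the STAG2-null pair and at 0.323 within the wild-type pair, against 0.215 to 0.236 between genotypes. The points of these correlations are loops of the same libraries at low counts, so they are a description of precision only.

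The promoters of IER5L, ETV6 and MEIS1 lie at anchors of these loops and are shown because the most shared anchors and the promoter-anchored loops described below turn on them. IER5L sits at an anchor that 18 loops share, ETV6 is an ETS-family repressor, and MEIS1 is a homeobox transcription factor. The sequences are from RefSeq (GRCh38.p14, whereas all loop positions below are hg19), read 5′ to 3′ on the gene's strand from 250 bases before to 50 after the start, at chr9:129178212-129178511 on the minus strand for IER5L, chr12:11649424-11649723 on the plus strand for ETV6 and chr2:66434875-66435174 on the plus strand for MEIS1. Capitals mark the ETS core GGAA on either strand, written TTCC where it lies on the other strand.
IER5L: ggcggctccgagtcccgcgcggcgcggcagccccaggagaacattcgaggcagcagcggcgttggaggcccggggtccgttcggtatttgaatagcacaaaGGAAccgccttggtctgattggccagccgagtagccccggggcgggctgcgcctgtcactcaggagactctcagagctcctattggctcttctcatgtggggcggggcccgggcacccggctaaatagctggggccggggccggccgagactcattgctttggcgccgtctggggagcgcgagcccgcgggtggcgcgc
ETV6: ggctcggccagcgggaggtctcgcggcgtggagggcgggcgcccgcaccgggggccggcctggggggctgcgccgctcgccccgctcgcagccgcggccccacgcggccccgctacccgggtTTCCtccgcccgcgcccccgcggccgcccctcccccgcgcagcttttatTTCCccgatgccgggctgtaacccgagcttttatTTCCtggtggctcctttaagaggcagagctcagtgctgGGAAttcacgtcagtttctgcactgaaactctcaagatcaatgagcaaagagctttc
MEIS1: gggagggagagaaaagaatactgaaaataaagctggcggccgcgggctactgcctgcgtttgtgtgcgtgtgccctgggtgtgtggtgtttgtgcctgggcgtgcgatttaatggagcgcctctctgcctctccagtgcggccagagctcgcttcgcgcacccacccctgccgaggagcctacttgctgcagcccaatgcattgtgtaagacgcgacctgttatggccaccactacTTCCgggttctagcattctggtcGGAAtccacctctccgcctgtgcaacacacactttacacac
IER5L holds 1 such core, ETV6 holds 4 and MEIS1 holds 2, and 95.5% of 35116 RefSeq promoter windows of the same length hold at least 1, with a median of 3. None of these windows holds the pair GGAAGGAA, found in 3.67% of all promoter windows on either strand. These letters bear only on the windows shown.

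As a class, loops of 200 to 500 kb took nearly the same share of PETs in both genotypes. The share was 6.21% and 6.28% of the table's PETs in STAG2-null libraries, against 5.91% and 6.24% in wild-type libraries. Wild-type 2 lay between both STAG2-null libraries and only wild-type 1 lay lower, so the groups overlapped. The means were 6.24% ± 0.0502 in STAG2-null cells and 6.08% ± 0.229 in wild-type cells (SD, n = 2 each), a difference of 0.167 percentage points (exact permutation test, two-sided, p = 0.667, where 2 against 2 libraries can give no p under 0.3333).

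The next shorter loops moved differently, as the plot of PET shares by loop width shows. Loops of 50 to 200 kb took 19.1% and 18.6% of PETs in STAG2-null cells, against 21.4% and 21.7% in wild-type cells. Set against that class, loops of 200 to 500 kb held 32.5 and 33.7 PETs per 100 PETs of 50 to 200 kb loops in STAG2-null cells, against 27.6 and 28.8 in wild-type cells. Both STAG2-null libraries lay above both wild-type libraries in this ratio, with means of 33.1 ± 0.872 and 28.2 ± 0.865 (SD, n = 2 each) and an exact permutation p of 0.3333, the smallest possible. Among the 312 loops of 500 kb and over, the share was 1.03% and 1.20% in STAG2-null libraries and 0.833% and 0.948% in wild-type libraries.

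**Figure D1:**
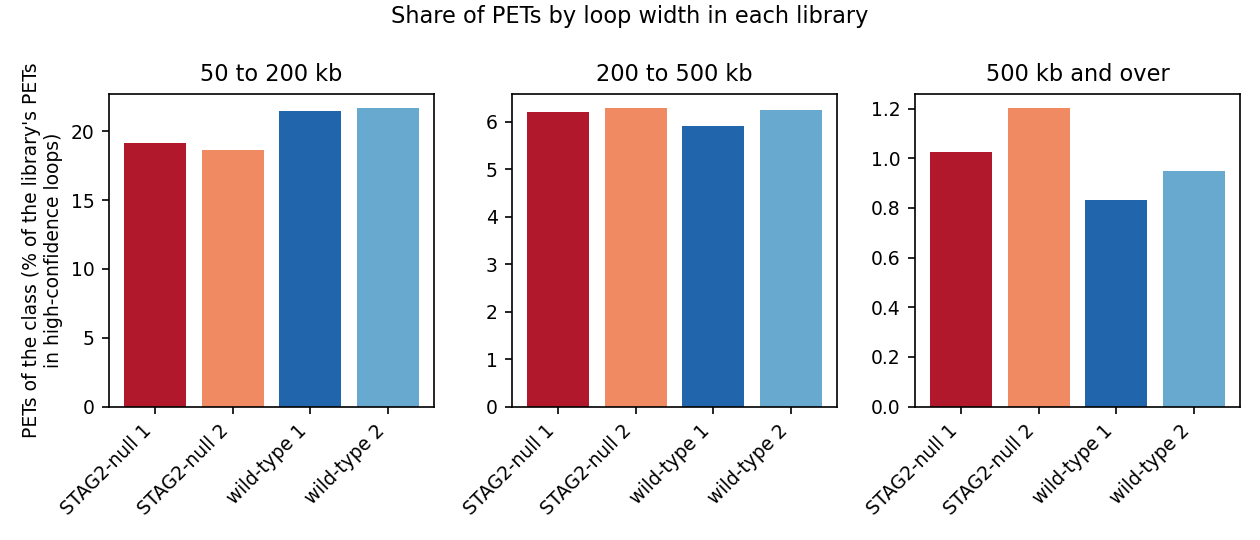
Share of each library's PETs in high-confidence loops (y axis, percent, each panel with its own scale from 0) for loops of 50 to 200 kb, 200 to 500 kb, and 500 kb and over; each bar is 1 library, STAG2-null in red shades and wild-type in blue shades. The bars for 200 to 500 kb are nearly level, between 5.91% and 6.28%, while the STAG2-null bars are lower than the wild-type bars at 50 to 200 kb and higher at 500 kb and over.

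Loop by loop, the median log2 change (STAG2-null over wild-type) of the 1871 loops was -0.01, and that of all 22680 loops was also -0.01. Of the 1871 loops, 1 was called higher in STAG2-null cells by edgeR's quasi-likelihood test at an adjusted p under 0.05, against 0.0353% of all loops, and 0 were called lower, against 0.022%. DESeq2 called 0 in either direction, where 6 higher loops and 3 lower loops had an unadjusted p below 0.05. By edgeR, an unadjusted p under 0.05 was reached by 103 loops that were higher (5.51%, against 4.34% of all loops) and 66 that were lower (3.53%, against 4.08%).

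The libraries of both genotypes did not overlap, after scaling to library size, in 401 loops that were higher in STAG2-null cells (21.4%, against 20.1% of all loops) and in 327 that were lower (17.5%, against 18.6%). These shares are close to those of the whole table. Of 1071 loops of 200 to 300 kb, 48 were higher (4.48%) and 43 lower (4.01%) at an unadjusted edgeR p below 0.05. At that p, 31 of 506 loops of 300 to 400 kb were higher (6.13%) and 17 lower (3.36%). For 400 to 500 kb these were 24 (8.16%) and 6 (2.04%) of 294, against 4.34% and 4.08% of all loops. The median log2 changes of these width steps were -0.01, 0.03 and -0.01, without a steady rise. Their groups did not overlap in 19.6%, 24.9% and 22.1% of loops in the higher direction, and in 18.3%, 16.4% and 16.3% in the lower. The differences between these width steps were not tested.

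The genotype difference varied by chromosome, and the smallest adjusted p-values were on chromosome 9, which was lower in STAG2-null cells, and on chromosome 7, which was higher. PETs of each chromosome's loops were summed per library and tested with edgeR over 23 chromosomes, 2 of which were called higher (8.7%) and 1 lower (4.35%). Sums of all other loops were called higher on 6 (24%) and lower on 3 (12%) of 25 sequences tested. The loops were unevenly spread, with 288 on chromosome 9, 261 on 11, 198 on 1, 181 on 12 and 163 on 7, together 58.3% of them.

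Chromosome 9 held the most loops and the lowest log2 change of any chromosome. Its 288 loops summed to 1573 and 1476 PETs in STAG2-null libraries, against 1809 and 1988 PETs in wild-type libraries. Both STAG2-null libraries were below both wild-type libraries, with a log2 change of -0.33 ± 0.07 (SE, edgeR adjusted p = 0.0004). All other loops of chromosome 9 changed by a log2 of -0.36 and were lower as well. Without wild-type 1 or wild-type 2 the chromosome 9 sum kept its sign and lost its call, with log2 changes of -0.31 and -0.34. The call was also lost over loops of at least 20 PETs, at -0.30, and with the replicate number as a block, at -0.33.

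Chromosome 7 went the other way. Its 163 loops summed to 776 and 909 PETs in STAG2-null libraries and 594 and 682 PETs in wild-type libraries, with no overlap and a log2 change of 0.39 ± 0.10 (edgeR adjusted p = 0.0041). Its other loops changed by a log2 of 0.32. On chromosome 3, 83 loops summed to 415 and 498 PETs in the STAG2-null libraries, against 300 and 367 PETs in the wild-type libraries, a log2 change of 0.44 ± 0.15 (adjusted p = 0.0344), against 0.21 for its other loops. Per loop, 107 of the 163 on chromosome 7 and 57 of the 83 on chromosome 3 had a positive log2 change, while 87 of the 288 on chromosome 9 did. The call of chromosome 7 was lost without STAG2-null 2, wild-type 1 or wild-type 2, at log2 changes of 0.32, 0.37 and 0.40. That of chromosome 3 was lost without any one library, at log2 changes of 0.35 to 0.52. Both calls also ended over loops of at least 20 PETs, at 0.47 for chromosome 7 and 0.60 for chromosome 3, and with the replicate number as a block, at 0.39 and 0.44.

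The plot of chromosome sums shows that 16 of 23 chromosomes had a positive log2 change. After scaling to library size, 9 were higher and 3 lower without overlap of the libraries, together 52.2% of the 23. The same count was not made for sums of the other loops, so it is not a result particular to long loops. Chromosome 11, the second richest, held 1294 and 1306 PETs in STAG2-null libraries and 1171 and 1344 PETs in wild-type libraries, a log2 change of 0.04 ± 0.08. Chromosome 1 held 978 and 1097 PETs in the STAG2-null libraries, against 836 and 987 in the wild-type libraries, a log2 change of 0.18 ± 0.09 (adjusted p = 0.24). The largest change was on chromosome X, with 7 loops, 30 and 48 PETs in the STAG2-null libraries, against 17 and 22 in the wild-type libraries, at a log2 of 0.98 ± 0.40 (adjusted p = 0.104). Chromosomes with fewer than 20 of these loops numbered 7, and their sums had the largest standard errors.

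**Figure D2:**
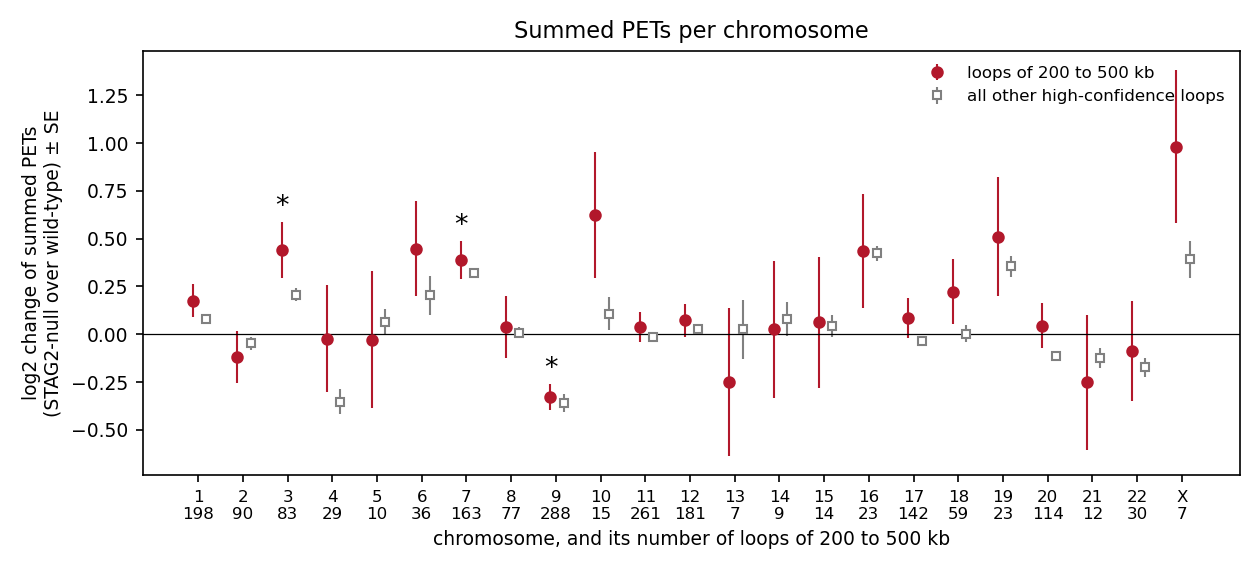
Log2 change of summed PETs (STAG2-null over wild-type, y axis, with the standard error of the fit) for each chromosome (x axis, with its number of loops of 200 to 500 kb); red circles are loops of 200 to 500 kb, open grey squares all other high-confidence loops, and asterisks mark an edgeR adjusted p under 0.05 for the red circles. Chromosomes 3 and 7 lie above 0 and chromosome 9 below 0 in both kinds of loop.

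Whether the long loops of a chromosome differed from its other loops was tested on the log2 ratio of their PETs. With all other loops as the base, limma called 0 of 23 chromosomes (0%), 2 had an unadjusted p under 0.05, and 18 of 23 ratios were higher in STAG2-null cells. On chromosome 9 this difference in log2 ratio was 0.03, on chromosome 7 it was 0.07 and on chromosome 3 it was 0.23. With only loops of 50 to 200 kb as the base, 22 of 23 ratios were higher in STAG2-null cells, with a median of 0.27, and 3 chromosomes passed at an adjusted p of 0.0268: chromosomes 10 (0.83), 13 (0.50) and X (0.89), which hold 15, 7 and 7 loops. The long loops of chromosome 13 themselves held 14 and 43 PETs in the STAG2-null libraries, against 31 and 36 in the wild-type libraries, a log2 change of -0.25 with overlap. Its loops of 50 to 200 kb changed by a log2 of -0.74 (edgeR adjusted p = 0.461). Against all other loops of the chromosome the ratio had the opposite sign, at -0.46. Sums of the 50 to 200 kb loops themselves were called lower on 11 of 23 chromosomes (47.8%) and higher on 2 (8.7%).

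The called loop lay on chromosome 7 and joined chr7:90222700-90227603 with chr7:90717406-90722586, 494.8 kb apart. The authors' deposited differential loops name CDK14, which encodes a cyclin-dependent kinase, among this loop's genes, with no promoter at either anchor and with CTCF, FLI1 and H3K27ac flagged at both. H3K27ac is a histone mark of active promoters and enhancers. The loop held 9 and 6 PETs in the STAG2-null libraries, against 0 and 0 in the wild-type libraries. It was at least 4.96-fold higher in STAG2-null cells, taking 3 PETs over the wild-type group as the floor, with a lower exact 95% binomial limit of 1.40 that covers counting error only (edgeR p = 2.36e-05, adjusted p = 0.0446).

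This call rests on 15 PETs and depends on the setting. It held with plain library totals (edgeR adjusted p = 0.0473) and where at least 10 PETs were asked for (edgeR adjusted p = 0.0445). The adjusted p was above 0.05 when each chromosome was scaled to its own total, when any one library was left out, with the replicate number as a block and by DESeq2, and the loop was not tested where at least 20 PETs were asked for.

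The 3 neighbouring loops of the same width class went the same way, as the arc map of chromosome 7 shows. From the left anchor a 384.2-kb loop ran back to chr7:89836820-89845166, with 6 and 7 PETs in the STAG2-null libraries, against 0 and 1 in the wild-type libraries. A 467.2-kb loop joined chr7:90249356-90256164 to the right anchor with 12 and 6 PETs in the STAG2-null libraries, against 1 and 3 in the wild-type libraries. A 236.0-kb loop ran from the right anchor to chr7:90953343-90958594 with 8 and 6 PETs in the STAG2-null libraries, against 3 and 3 in the wild-type libraries. In each, both STAG2-null libraries lay above both wild-type libraries, although none passed the adjusted threshold on its own.

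Summed over the loops of 200 to 500 kb that meet there, both anchors were called by edgeR, 2 of 678 shared anchors tested (0.295% higher, 0% lower). The right anchor, in 3 such loops, held 29 and 18 PETs in the STAG2-null libraries, against 4 and 6 in the wild-type libraries, a log2 change of 2.20 ± 0.45 (adjusted p = 0.0411). The left anchor, in 2 such loops, held 15 and 13 PETs in the STAG2-null libraries, against 0 and 1 in the wild-type libraries, a log2 change of 4.49 ± 0.84 (adjusted p = 0.0286). The sums share the called loop and are not independent. With plain library totals both calls were lost, at log2 changes of 2.18 for the right and 4.48 for the left anchor, and without wild-type 1 both were lost at 2.02 and 3.72. With each chromosome scaled to its own total the right anchor lost its call, at 1.88. The 8 loops of other widths at these anchors, from 6.56 to 775.9 kb, held 74 and 91 PETs in the STAG2-null libraries, against 49 and 49 in the wild-type libraries, and all 8 had a positive log2 change. Chromosome 7 loops outside this class were also higher, as given above, and what part that shift has in this locus was not tested.

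**Figure D3:**
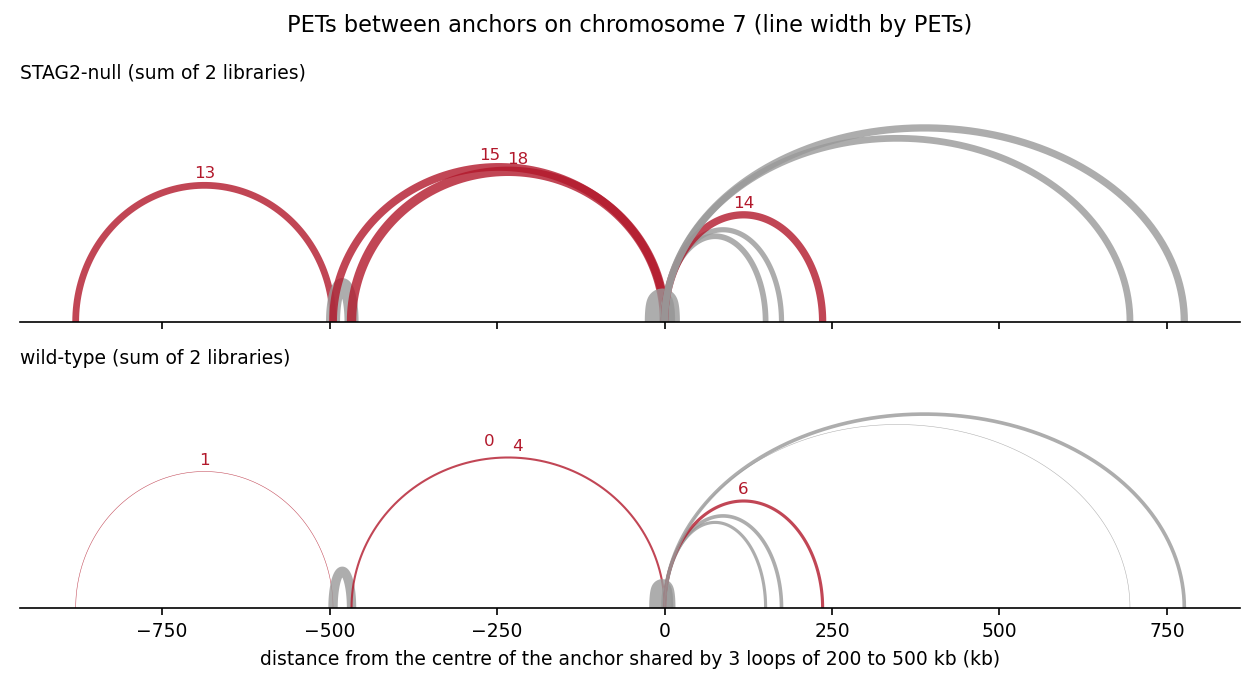
PETs of every high-confidence loop at the 2 called anchors of chromosome 7, summed over the STAG2-null libraries (top) and the wild-type libraries (bottom), against distance in kb from the centre of the right anchor; line width follows PETs, red arcs are loops of 200 to 500 kb with their summed PETs printed, and grey arcs are loops of other widths. The red arcs hold 13, 15, 18 and 14 PETs in STAG2-null cells, against 1, 0, 4 and 6 in wild-type cells.

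Among the loops with the smallest p in each direction, none besides the chromosome 7 loop passed adjustment. The next smallest p among the higher loops belonged to chr11:86648892-86653875 with chr11:86904897-86907485, which held 5 and 12 PETs in the STAG2-null libraries, against 1 and 1 in the wild-type libraries. Its ratio of summed PETs was 8.43, with an exact 95% binomial interval of 2.00 to 75.3 (edgeR adjusted p = 0.21). FZD4, a Wnt and norrin receptor, is among the genes that the authors' deposited table lists for this loop. On chromosome 6, a 311.5-kb loop from chr6:55842970-55846779 to chr6:56153428-56159252 held 6 and 12 PETs in the STAG2-null libraries, against 1 and 2 in the wild-type libraries, with the collagen gene COL21A1 listed and CTCF flagged at both anchors (ratio 5.95, interval 1.74 to 31.6, adjusted p = 0.236).

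At the promoter of ETV6, whose sequence is given above, chr12:11800742-11808094 was joined with chr12:12167219-12172462, 365.4 kb away. This loop held 10 and 5 PETs in the STAG2-null libraries, against 2 and 0 in the wild-type libraries, with a ratio of 7.44 and an interval of 1.73 to 67.1 (adjusted p = 0.271). A loop of 425.5 kb on chromosome 1, from chr1:38524033-38531360 to chr1:38949587-38956743, was the most even of the group, with 13 and 13 PETs in the STAG2-null libraries, against 4 and 3 in the wild-type libraries, a log2 change of 1.84 ± 0.58 (adjusted p = 0.271). FLI1 and H3K27ac are flagged at both of its anchors.

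In the other direction, 4 of the 5 loops with the smallest p lay on chromosome 9. The exception, with the smallest p of all lower loops, joined chr11:44277073-44293587 with chr11:44541617-44553648 and is listed with ALX4, a homeobox gene of craniofacial development. It held 3 and 2 PETs in the STAG2-null libraries, against 7 and 19 in the wild-type libraries, and most of the wild-type PETs came from wild-type 2 (log2 change -2.33 ± 0.62, adjusted p = 0.139). A 256.1-kb loop joined chr9:139434080-139452240 with chr9:139693420-139705056, with promoters of RABL6, a Rab-like GTPase, and NOTCH1, the receptor of Notch signalling, named for its anchors. It held 0 and 1 PETs in the STAG2-null libraries, against 7 and 6 in the wild-type libraries. Its ratio was 13.1, wild-type over STAG2-null, with an interval of 1.97 to 557 (adjusted p = 0.271).

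At lower coordinates on chromosome 9, a 315.3-kb loop from chr9:137971226-137992224 to chr9:138294129-138299878 held 3 and 4 PETs in the STAG2-null libraries, against 14 and 9 in the wild-type libraries, a log2 change of -1.69 ± 0.59 (adjusted p = 0.338). Another, from chr9:124445404-124464831 to chr9:124748037-124753040, with CTCF flagged at both anchors, held 1 and 1 PETs in the STAG2-null libraries, against 6 and 8 in the wild-type libraries (ratio 7.06, wild-type over STAG2-null, interval 1.62 to 64.0, adjusted p = 0.284). The remaining one of these 5 is also among the strongest loops and is described with them.

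Some loops of the class had no PET in one genotype, 4 of them in the STAG2-null libraries and 7 in the wild-type libraries. Over the whole table this was so for 14 loops (0.0617%) in the STAG2-null libraries and 16 loops (0.0705%) in the wild-type libraries. Apart from the called loop, the one with the most PETs was the 237.6-kb loop from chr20:47295202-47306877 to the promoter of ARFGEF2, an exchange factor for ARF GTPases, at chr20:47536089-47541261. It held 5 and 6 PETs in the STAG2-null libraries, against 0 and 0 in the wild-type libraries (edgeR adjusted p = 0.284). Against the same floor its fold was 3.64, with a lower limit of 0.961 that does not exclude an equal level. The others held 8 or 9 PETs in all, and the lower limits of their folds against the floor lay under 1.

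The strongest loops of 200 to 500 kb had PETs in every library of both genotypes. The 12 with the most PETs held between 101 and 196 PETs over the 4 libraries, 4.48% of the PETs of the class, and 5 lay on chromosome 9 and 4 on chromosome 12. None was called by edgeR or DESeq2, and 1 had an unadjusted p under 0.05 by either tool. Their log2 changes lay between -0.77 and 0.62 with standard errors of 0.25 to 0.32, and 4 of the 12 were positive.

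The strongest loop joined chr12:124968696-125018778 with chr12:125233800-125252749, 249.5 kb apart. It held 55 and 39 PETs in the STAG2-null libraries, against 58 and 44 in the wild-type libraries, so the groups overlapped (log2 change -0.13 ± 0.25). From the same left anchor, a 229.2-kb loop to chr12:125213245-125232644 held 30 and 27 PETs in the STAG2-null libraries, against 35 and 47 in the wild-type libraries (log2 change -0.53 ± 0.28). A 301.2-kb loop of that neighbourhood, from chr12:124928285-124955849 to the same right end, held 27 and 22 PETs in the STAG2-null libraries, against 30 and 24 in the wild-type libraries.

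The next strongest loop showed the lowest log2 change of the 12. It joined chr9:132073682-132119020 with chr9:132362222-132384988, where the promoters of NTMT1, an N-terminal methyltransferase, and C9orf50 lie, 277.3 kb apart. It held 40 and 31 PETs in the STAG2-null libraries, against 65 and 55 in the wild-type libraries, with both STAG2-null libraries lower (log2 change -0.77 ± 0.25, edgeR adjusted p = 0.284).

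Among the 12 strongest loops, the others of chromosome 9 around this locus had smaller log2 changes. The loop between IER5L, a relative of an immediate early response gene, and the NTMT1 and C9orf50 anchor spanned 434.7 kb, from chr9:131928426-131949432. It held 42 and 42 PETs in the STAG2-null libraries, against 49 and 55 in the wild-type libraries (log2 change -0.32 ± 0.25). IER5L was also joined to chr9:132240582-132270109, with 30 and 28 PETs in the STAG2-null libraries, against 38 and 39 in the wild-type libraries (log2 change -0.42 ± 0.29). The 464.8-kb loop from chr9:131898310-131919314 to the NTMT1 and C9orf50 anchor held 34 and 32 PETs in the STAG2-null libraries, against 36 and 40 in the wild-type libraries (log2 change -0.21 ± 0.28). All of these had lower counts in both STAG2-null libraries than in either wild-type library, as the sums of the whole chromosome did. Scaled to the chromosome's own total, the 434.7-kb and 464.8-kb loops turned positive, at log2 changes of 0.04 and 0.14. The 316.4-kb loop from IER5L to chr9:132240582-132270109 moved to -0.06 and the 277.3-kb loop to -0.41.

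Loops with higher counts in STAG2-null cells were fewer among the 12. At CEBPB, a bZIP transcription factor, the 268.8-kb loop from chr20:48801563-48815725 to chr20:49071874-49082923 held 32 and 47 PETs in the STAG2-null libraries, against 23 and 39 in the wild-type libraries, with overlap of the groups (log2 change 0.34 ± 0.28). The strongest loop of chromosome 3, from chr3:33955951-33971709 to chr3:34313960-34324613, held 30 and 35 PETs in the STAG2-null libraries, against 16 and 26 in the wild-type libraries (log2 change 0.62 ± 0.32, adjusted p = 0.591). Its groups did not overlap. On chromosome 12, chr12:54385535-54420315 and chr12:54606459-54615928 shared 29 and 36 PETs in the STAG2-null libraries, against 28 and 31 in the wild-type libraries, close to level.

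Of the remaining strongest loops, the 249.98-kb loop from chr9:137971226-137992224 to the C9orf62 promoter at chr9:138220657-138242758 held 28 and 30 PETs in the STAG2-null libraries, against 21 and 34 in the wild-type libraries. The 217.0-kb loop from chr17:79221592-79232793 to chr17:79429015-79459298 held 21 and 23 PETs in the STAG2-null libraries, against 30 and 27 in the wild-type libraries. The strongest loop of chromosome 7 was not among these 12, with 17 and 14 PETs in the STAG2-null libraries, against 7 and 17 in the wild-type libraries, at chr7:105326739-105335925 and chr7:105677840-105691973. Its groups overlapped, although the chromosome's sum did not.

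**Figure D4:**
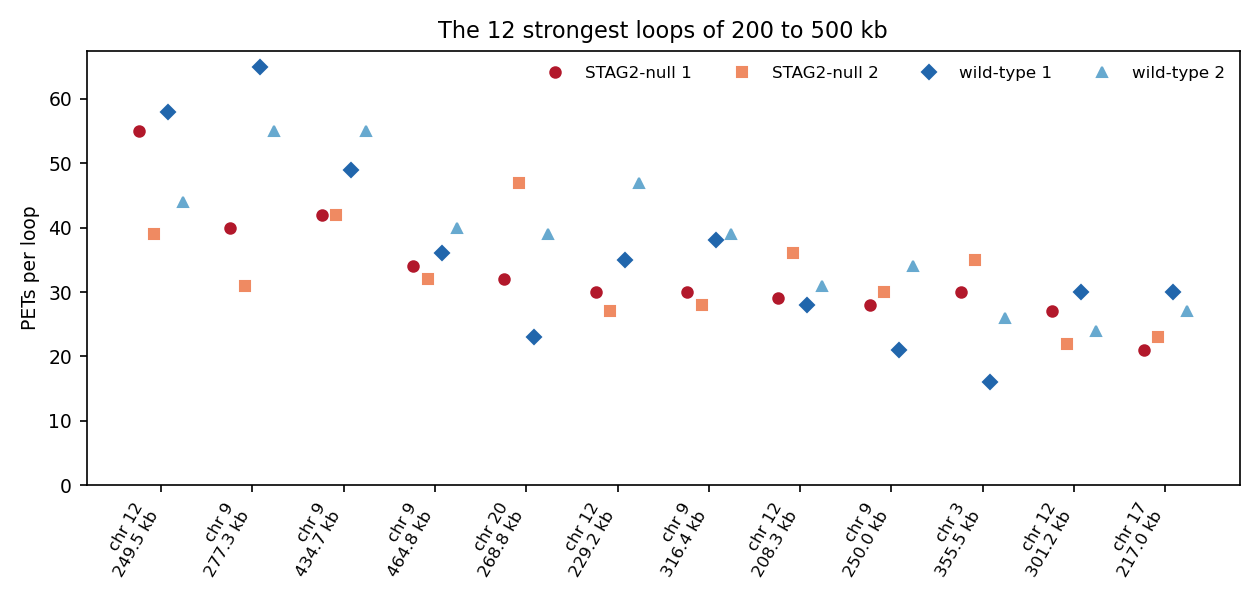
PETs (y axis) in each library for the 12 strongest loops of 200 to 500 kb (x axis, chromosome and width, from most to fewest PETs in all); red shades are STAG2-null and blue shades wild-type libraries. Both STAG2-null libraries lie under both wild-type libraries in 6 of the 12 loops and above them in 1. Over all loops, after scaling to library size, the shares were 18.6% and 20.1%. Most of the 6 lie around IER5L and NTMT1 on chromosome 9 and share anchors. The 277.3-kb loop of chromosome 9 has the STAG2-null libraries at 40 and 31 PETs, under the wild-type libraries at 65 and 55.

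Anchors were widely shared. The 1871 loops used 2202 anchors, of which 678 (30.8%) were in 2 or more of them and 15 in 10 or more, and 1551 loops (82.9%) had at least 1 shared anchor. Most anchors, 1749 (79.4%), also held a loop under 200 kb, and 196 also held a loop of 500 kb or over. For 1099 loops (58.7%), another anchor lay in between that was joined by high-confidence loops to both ends. Anchor widths, counted at both ends of every loop, had a median of 7877.5 bp against 5540.0 bp over all loops. An anchor shared by several loops counts several times in these medians.

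Linked through common anchors, the loops fell into 562 groups, 320 of them single loops and 42 with at least 10 loops. The largest group held 119 loops between positions 131579763 and 134214970 of chromosome 9, 41.3% of that chromosome's loops in the class. It summed to 834 and 728 PETs in the STAG2-null libraries, against 931 and 1027 in the wild-type libraries, and 33 of its 119 loops had a positive log2 change. Of the 42 larger groups, 14 were higher in STAG2-null cells without overlap (33.3%), 12 were lower (28.6%) and 16 overlapped. On chromosome 9, 5 of the 6 such groups were lower.

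The 6 most shared anchors comprised 5 of this chromosome 9 group and 1 on chromosome 12. Some loops join these chromosome 9 anchors to each other and count at both ends, so the sums of the 5 are not independent. The anchor in most loops, chr9:132073682-132119020, joined 19 loops and had CTCF, FLI1 and H3K27ac flagged. Its loops summed to 183 and 167 PETs in the STAG2-null libraries, against 236 and 237 in the wild-type libraries, a log2 change of -0.45 ± 0.13 (edgeR adjusted p = 0.162), and 3 of the 19 were positive. Both STAG2-null libraries were lower. Under scaling per chromosome the anchor's change kept its sign, while its strongest loop, of 277.3 kb, went from a log2 change of -0.77 to -0.41.

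IER5L's anchor joined 18 loops, all running to higher coordinates, with 193 and 198 PETs in the STAG2-null libraries, against 214 and 264 in the wild-type libraries (log2 change -0.30 ± 0.12, adjusted p = 0.274). The anchor of NTMT1 and C9orf50 joined 17 loops, all running to lower coordinates, with 227 and 197 PETs in the STAG2-null libraries, against 252 and 283 in the wild-type libraries (log2 change -0.34 ± 0.12, adjusted p = 0.235). The anchors chr9:132240582-132270109, in 14 loops, and chr9:131898310-131919314, in 13 loops, changed by log2 values of -0.21 ± 0.16 and -0.26 ± 0.16. When chromosome 9 was scaled to its own total, these 4 anchors moved to log2 changes of 0.06, 0.01, 0.15 and 0.10, in the order given.

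The anchor on chromosome 12, chr12:54385535-54420315, joined 15 loops reaching from position 54068472 to 54816105. It held 109 and 120 PETs in the STAG2-null libraries, against 110 and 103 in the wild-type libraries, a log2 change of 0.09 ± 0.16 with overlap of the groups. Over the 15 anchors in at least 10 loops, 7 of them on chromosome 9, log2 changes lay between -0.66 and 0.37, 3 were positive, 0 were called by edgeR and 6 had an unadjusted p under 0.05. Over all 678 shared anchors, an unadjusted p below 0.05 was reached by 60 that were higher (8.85%) and 27 that were lower (3.98%), with 171 (25.2%) and 137 (20.2%) free of overlap. Anchors joined by a loop share its PETs, so neither the 15 nor the 678 are independent.

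**Figure D5:**
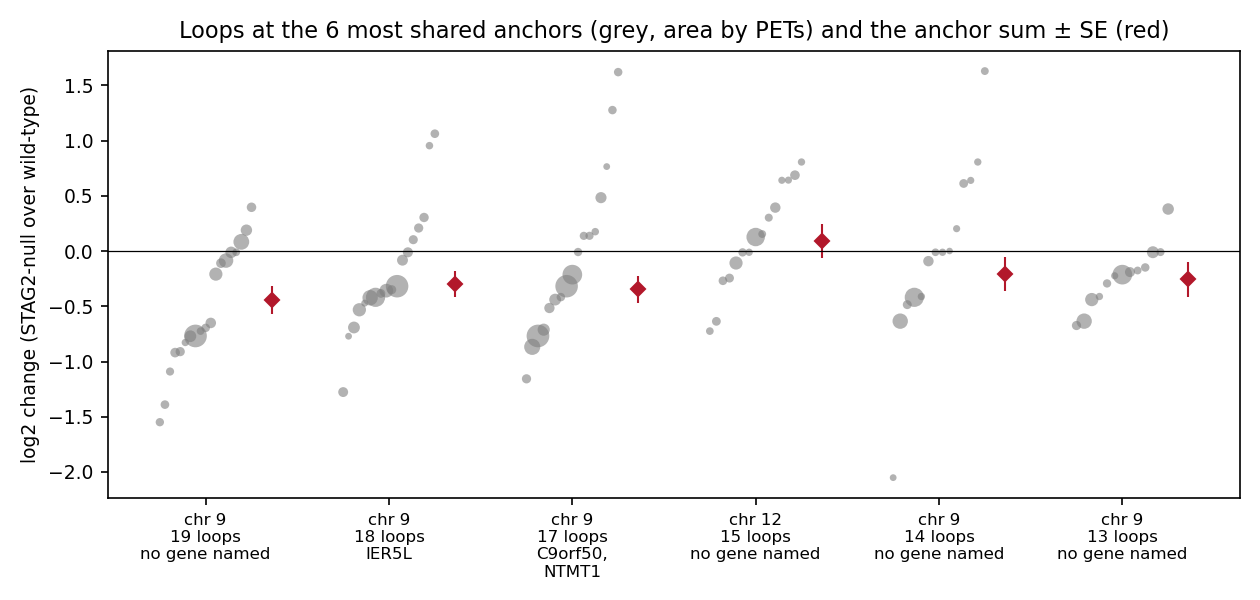
Log2 change (STAG2-null over wild-type, y axis) of each loop of 200 to 500 kb at the 6 most shared anchors (x axis, with chromosome, number of loops and any promoter named there); grey points are loops, ordered by value and with area by PETs, and the red diamond is the anchor's sum with its standard error. The sums of the chromosome 9 anchors lie between -0.45 and -0.21, and the chromosome 12 anchor lies at 0.09. The chromosome 9 anchors have loops in common, so their sums are not independent.

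Genes could be named at 78 of the anchors, in 268 loops, from the deposited differential loops of the authors, which name only genes at loops that they found changed. Of 18 genes known to be activated by EWS-FLI1, 2 were named at anchors of this class. CAV1, which encodes the main protein of caveolae, had 8 loops of 252.4 to 312.6 kb, summing to 44 and 57 PETs in the STAG2-null libraries, against 32 and 42 in the wild-type libraries, and ETV6 had the loop described above. Of these 9 loops 7 had a positive log2 change with a median of 0.27, 4 were free of overlap in that direction (20.1% of all loops were), and 0 were called by edgeR or DESeq2, with 1 at an unadjusted p under 0.05 by edgeR and 0 by DESeq2. A CAV1 loop with 2 and 3 PETs in the STAG2-null libraries, against 5 and 7 in the wild-type libraries, was lower without overlap (18.6% of all loops were). The 8 CAV1 loops share an anchor and are not independent. The CAV1 loops lie on chromosome 7, where the 163 loops of this class had a median log2 of 0.28 and 33.1% were higher without overlap. The ETV6 loop is itself among the authors' differential loops, as stronger in STAG2-null cells, so its direction was not independent of its naming.

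HOX genes and their partners, which set positional identity, had 10 loops. MEIS1, a cofactor of HOX proteins whose promoter sequence is given above, was joined from chr2:66650942-66668791 to chr2:67099483-67105421, 442.6 kb away. This loop held 10 and 14 PETs in the STAG2-null libraries, against 6 and 3 in the wild-type libraries (log2 change 1.38 ± 0.56) and its groups did not overlap. The MEIS1 loop is also among the authors' differential loops, as stronger in STAG2-null cells, so its direction was not independent of its naming. The anchor of HOXD3, HOXD8, HOXD9, HOXD10 and HOXD11 had 7 loops that summed to 40 and 55 PETs in the STAG2-null libraries, against 57 and 60 in the wild-type libraries, 2 of them positive. HOXB13 had 2 loops, with 8 and 6 PETs in the STAG2-null libraries, against 7 and 8 in the wild-type libraries. Over the 10 loops the median log2 change was -0.28, 4 were positive and 0 were called by edgeR or DESeq2, with 2 at an unadjusted p under 0.05 by edgeR and 0 by DESeq2. Of the 10 genes repressed by EWS-FLI1 and the 12 cohesin and boundary genes looked for, 0 were named at these anchors.

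The authors' deposited table of 650 differential loops holds 43 loops of 200 to 500 kb, with a log2 fold change that runs wild-type over mutant and is turned round here. Of these, 32 were stronger in STAG2-null cells (1.71% of the class, against 1.54% of all loops in that direction) and 11 in wild-type cells (0.588%, against 1.32%). Of the 11 weaker loops, 8 lay on chromosome 9, which holds 15.4% of the class. Among weaker differential loops of other widths, 100 of 289 lay on chromosome 9 as well. The adjusted p-values in that table for these loops ran from 0.00545 to 0.0997, so part of its list lies above the threshold used here. Its header names another adjustment (IHW) than the Benjamini-Hochberg one used here, so the adjusted p-values are not alike. The log2 changes of these loops differed by at most 0.0011 from those of the edgeR fit. The ALX4 loop, for example, had an adjusted p of 0.0164 there and 0.139 by edgeR here.

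Some features of the anchors in the authors' deposited table differed in share between these 43 and the other 607 differential loops. CTCF was flagged at both anchors of 20 of the 43 (46.5%), against 27.2% of the others. FLI1 was flagged at both anchors of 9 (20.9%), against 4.28%, and H3K27ac at both anchors of 25 (58.1%), against 34.4%. A promoter was flagged at both anchors of 4 (9.30%), against 11.4%. At either anchor, CTCF was flagged in 90.7% against 72.0%, FLI1 in 48.8% against 24.4%, H3K27ac in 83.7% against 81.9% and a promoter in 37.2% against 49.6%. The sets also differed in direction, with 74.4% stronger in STAG2-null cells, against 52.4%. Among loops weaker in STAG2-null cells, CTCF was at both anchors of 4 of 11, against 96 of 289. Among the stronger loops it was at both anchors of 16 of 32, against 69 of 318. The differences between these shares were not tested, and neither was the part of anchor width, whose median is given above.

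By size in the authors' deposited table, the most strengthened loops of the class were the called chromosome 7 loop (log2 5.93 in that table), the ARFGEF2 loop (5.49) and 3 loops at 3.40. Among the 3 was the 384.2-kb neighbour on chromosome 7. Another joined chr11:131727760-131739821 with chr11:131992502-131998584 and is listed with NTM, a neural cell adhesion gene, with 6 and 7 PETs in the STAG2-null libraries, against 0 and 1 in the wild-type libraries. The last joined chr12:41669351-41674225 with chr12:42055125-42058918 and is listed with PDZRN4, with 6 and 7 PETs in the STAG2-null libraries, against 1 and 0 in the wild-type libraries. Both had CTCF flagged at both anchors.

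Of the most weakened loops in the authors' deposited table, NOTCH1 and RABL6 led at a log2 of -3.42, followed by the chromosome 9 loop with 1 and 1 PETs in the STAG2-null libraries. Listed with SYN3, a synapsin gene, a 264.0-kb loop joined chr22:32924071-32930550 with chr22:33188322-33194283 and held 0 and 2 PETs in the STAG2-null libraries, against 5 and 8 in the wild-type libraries. ALX4 came next. A 225.9-kb loop from chr9:138035691-138051363 to chr9:138265765-138273082 held 4 and 0 PETs in the STAG2-null libraries, against 8 and 9 in the wild-type libraries.

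At the limits of the class, loops just inside and just outside the width range are given as a description. The shortest, 200.1 kb, ended at the promoter of VAV2, at chr9:136850706-136866241, with 12 and 12 PETs in the STAG2-null libraries, against 21 and 28 in the wild-type libraries. Next to it inside was a 200.2-kb loop at chr12:110009796-110013281 with 1 and 4 PETs in the STAG2-null libraries, against 4 and 6 in the wild-type libraries. The VAV2 loop was lower in both STAG2-null libraries, while STAG2-null 2 and wild-type 1 had equal counts in the other. Just outside lay loops of 199.9 kb at chr11:69208602-69218260, with 8 and 5 PETs in the STAG2-null libraries, against 5 and 10 in the wild-type libraries, and of 199.7 kb at chr7:150480672-150487774, with 3 and 8 PETs in the STAG2-null libraries, against 3 and 7 in the wild-type libraries.

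At the upper limit, the widest loop, 499.5 kb at chr12:52765550-52768710, held 3 and 5 PETs in the STAG2-null libraries, against 6 and 5 in the wild-type libraries. A 497.5-kb loop at the promoter of FAM43A, at chr3:194405577-194411275, held 6 and 10 PETs in the STAG2-null libraries, against 4 and 2 in the wild-type libraries, without overlap. Just beyond lay loops of 500.1 kb at chr9:131888005-131891969 and of 501.1 kb at chr1:43993154-43999876. The 500.1-kb loop held 4 and 2 PETs in the STAG2-null libraries, against 4 and 0 in the wild-type libraries, and the 501.1-kb loop held 8 and 8 PETs in the STAG2-null libraries, against 6 and 6 in the wild-type libraries.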

How the data were processed

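SMC1 HiChIP of A673 cells was deposited for 2 STAG2-null libraries and 2 wild-type libraries, with 682724 and 698002 PETs (STAG2-null) and 661881 and 765017 PETs (wild-type) over all anchor pairs. HiC-Pro, with no version given, and hg19 appear in the submitters' processing notes. The authors deposited whole PET counts per loop, with a p-value and false discovery rate per loop from mango, per the file headers, and selected the loops: all are at or under a rate of 0.01. Their differential table gives a log2 fold change and an adjusted p-value headed IHWadjP, per the file headers. The tool that made the log2 fold change is not given in the sources used here. Only loops that passed the authors' selection could be counted here.

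Counts came from the per-library files at the table's anchor pairs, where they equal the table's 4 columns in all 22680 loops. Starts were made 1-based. edgeR 4.0.16 (R 4.3.3) fitted genotype to all loops by quasi-likelihood with TMM factors, no filter on low counts and Benjamini-Hochberg adjustment, and a call needed an adjusted p under 0.05. The same test was run on sums per chromosome and per anchor held by at least 2 of the loops, since loops are not replicates. limma 3.58.1 tested log2 ratios per chromosome (0.5 added to each sum), and DESeq2 1.42.0 was an alternative. Exact permutation tests used scipy 1.17.1 and groups of linked loops networkx 3.6.1. Errors of log2 changes are standard errors from the fit. In simulated counts for the 22680 loops, edgeR called 0 of 100 loops changed 2-fold and 45 of 100 changed 4-fold. The changed loops were drawn from the whole table, whose median was 20 PETs against 16 in this class, with a common dispersion. These rates are therefore not those of the class.

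Loops were named by a rule: called loops, 5 with the smallest p per direction, the 12 strongest, the 6 most shared anchors, the strongest loop of each called chromosome, up to 5 per direction from the authors' table, the 2 loops on each side of a width limit, and loops of 4 gene lists. The loops at 0 and the neighbours at the called anchors were added after their values were seen. A gene was placed at an anchor only where the authors' table names it there without ambiguity. The class, the lists and the rule were chosen with earlier results of these data known. Same-numbered libraries of the 2 groups deviated together at r = 0.003 over 11864 loops with at least 20 PETs, so the numbers are not taken as pairs. Other settings tried were plain totals, scaling per chromosome, minimums of 10 and 20 PETs, merged anchors, a replicate block and leaving out each library.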

Additional observations from a re-analysis of the deposited data

How the results depend on the processing

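Leaving out 1 library leaves 1 in its group, assumed to vary like the others. The 1 called loop became 0 with scaling per chromosome, with at least 20 PETs, with the replicate block, by DESeq2 and without any one library (0 to 0), although edgeR then still gave an unadjusted p below 0.05 to 89 higher and 46 lower loops with scaling per chromosome and 78 and 50 with the block, and DESeq2 gave 6 and 3. Chromosome sums called higher went from 2 to 0 with at least 20 PETs per loop and with the block, and to 0 to 3 without one library, while the 1 called lower became 0, 0 and 0 to 2 (with an unadjusted p below 0.05 for 5 higher and 1 lower in both the PET minimum and the block). Chromosome 9 lost its call without wild-type 1 or wild-type 2, and chromosomes 7 and 3 without STAG2-null 2, wild-type 1 or wild-type 2, chromosome 3 also without STAG2-null 1. Shared anchors called higher numbered 2, and 0 with plain totals (54 at an unadjusted p below 0.05), 1 with scaling per chromosome, 5 with anchors merged within 5 kb, 5 with the block and 0 to 11 without one library. Those called lower numbered 0, and 2 with merged anchors, 5 with the block and 0 to 8 without one library. Ratios to other loops passed on 0 chromosomes, and on 3 against loops of 50 to 200 kb. The median log2 change of the class less that of all loops was 0.00463, 0.0517 with scaling per chromosome, 0.0872 with at least 20 PETs and -0.13 to 0.147 without one library. The difference in PET share was 0.167 percentage points, -0.0306 over all anchor pairs of this width and 0.0046 to 0.329 without one library. Scaling per chromosome turned the log2 change of 2 chromosome 9 loops (0.14 at 464.8 kb, 0.038 at 434.7 kb) and of 4 chromosome 9 anchors (0.057, 0.010, 0.15 and 0.098). Without one library, log2 changes crossed 0 for the strongest loop of chromosome 7 (-0.061 to 1.03), the 249.98-kb loop of chromosome 9 (-0.16 to 0.36), the 301.2-kb and 249.5-kb loops of chromosome 12 (-0.39 to 0.10 and -0.44 to 0.17) and the shared anchor of chromosome 12 (-0.041 to 0.22). The replicate block leaves 1 residual degree of freedom. The causes of these changes were not tested beyond the smaller number of libraries or loops that a setting leaves. Depth limits single loops, with a median of 16 PETs.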
